A study of Mus musculus with 63 samples.

Results

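Hearts of NZO mice were compared with hearts of NOD mice over all genes of a polyA RNA-seq count table, 8 libraries of each strain, labelled NZO_1 to NZO_8 and NOD_1 to NOD_8. These 16 libraries were taken by strain label from a series of 63 libraries on the 8 strains that founded the Diversity Outbred mice; the other 6 are 129, AJ, B6, Cast, PWK and WSB. Both strains, like all others, received a diet high in fat and sugar (45% fat), so no library shows either strain on ordinary chow. Age, sex, body weight, blood glucose and time of collection are not in the labels used here, and nothing beyond an identifier in each title says that libraries of a strain came from separate mice. P-values therefore measure the spread between these libraries.

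NZO (New Zealand Obese) mice become obese through many genes and males often progress to a diabetes that resembles human type 2. NOD (non-obese diabetic) mice stay lean and develop autoimmune diabetes driven by T cells. Both are inbred lines, so a difference between them is a difference between whole genomes and everything that follows from it, in a mixed tissue of cardiomyocytes, fibroblasts, vessels and immune cells. In such bulk RNA, fewer cells of a type and less RNA per cell cannot be told apart.

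Total estimated counts ran from 25.8 to 39.7 M in NZO libraries and from 32.1 to 35.5 M in NOD libraries. Levels are CPM, counts relative to the library total, scaled by TMM, a normalisation that sets aside the most extreme genes. They compare 1 gene between libraries, not 2 genes with each other, since they are not divided by gene length. Myh6, the main cardiac myosin of adult mouse ventricle, marked all libraries as heart, with 26274, 28400.1 and 29874 CPM in NZO hearts, against 28401, 31598 and 34447 CPM in NOD hearts. In this and later sentences, 3 values in a row are the lowest, the median and the highest of the 8 libraries. Libraries numbered 1 to 4 of both strains held Xist, the RNA of the inactive X chromosome, at 303 to 398 CPM in NZO and 274 to 363 CPM in NOD, and the Y-linked Ddx3y at 0. Libraries numbered 5 to 8 held Xist at no more than 0.749 CPM in NZO and 2.01 CPM in NOD, and Ddx3y at 75.2 to 87.4 CPM in NZO and 75.2 to 95.5 CPM in NOD. The strains were thus balanced for whatever separates the numbers. NZO_8 stood apart: 113 genes lay at least 1 log2 unit above all other NZO libraries and 44 below, against at most 27 and 6 in any other library. NOD_5 held far more T cell marker RNA and NOD_3 more B cell marker RNA than the other NOD libraries, so counts that rest on them are also given without these 3 libraries. Across 11805 genes, log2 levels correlated at 0.966 to 0.994 within NZO, 0.981 to 0.995 within NOD and 0.949 to 0.971 between the strains.

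Of 16425 genes tested, 4122 (25.1%) passed an adjusted p of 0.05 in edgeR's quasi-likelihood test, in a single fit of all 63 libraries. NZO hearts were higher in 2025 (12.3%) and lower in 2097 (12.8%). Differences of at least 2-fold were fewer: 1053 genes (6.41%), of which 451 (2.75%) were higher and 602 (3.67%) lower in NZO. That count was 263 (119 higher, 144 lower) among genes whose mean log2 CPM reached 1, and 136 (57 higher, 79 lower) by limma on the deposited variance-stabilised values. In 718 genes (4.37%) every NZO library lay above every NOD library, and in 844 (5.14%) below. The median log2 fold change (NZO over NOD) over all tested genes was -0.0019 and the median size, whatever the sign, 0.173. The shares past the test are the background against which the gene groups are read.

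**Figure D1:**
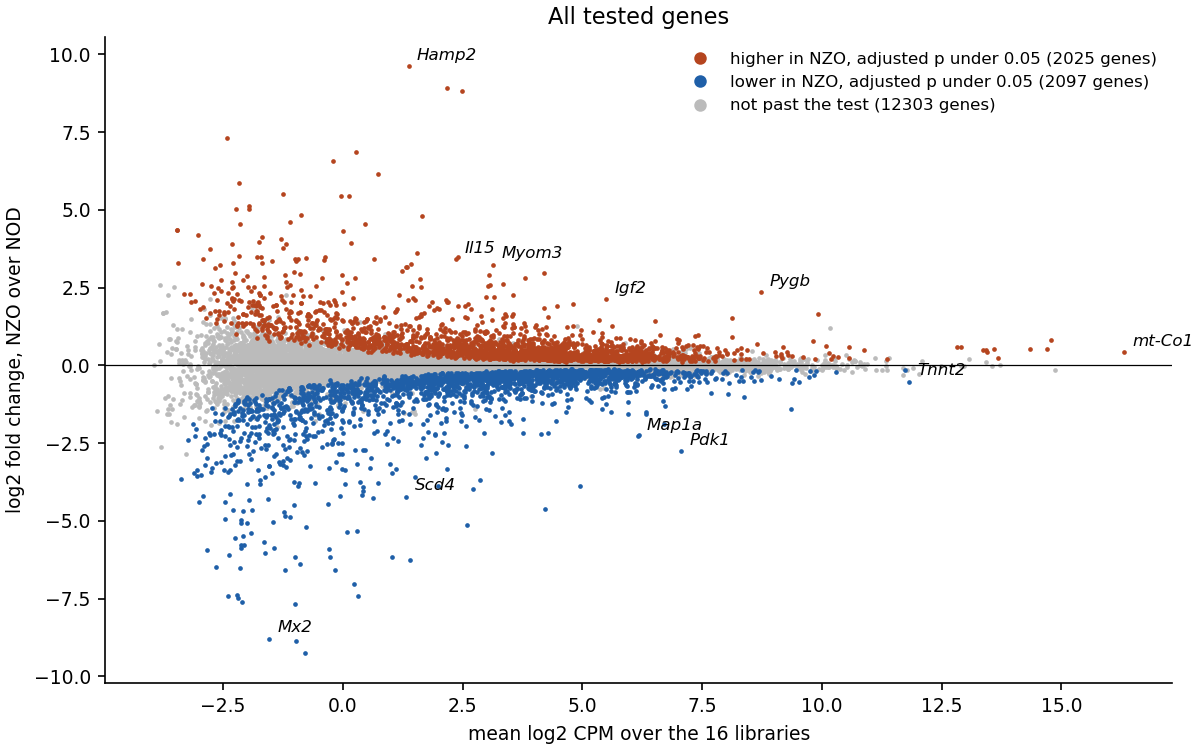
Log2 fold change (NZO over NOD, y axis) against mean log2 CPM over the 16 libraries (x axis), 1 point per tested gene. The 2025 genes higher and the 2097 genes lower in NZO spread about evenly around 0, with Hamp2 at the top and Mx2, listed at 0 in all NZO libraries, near the bottom.

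Among well-expressed genes without overlap between the strains, Myom3 had the largest positive difference. This protein of the M-band crosslinks thick filaments. Myom3 had 7.94, 29.3 and 41.6 CPM in NZO hearts, against 2.29, 3.14 and 3.43 CPM in NOD hearts (log2 fold change 3.24 ± 0.24 SE, adjusted p = 1.47e-17). It lay at 1.20 to 2.35 CPM in the means of the other 6 strains, so NZO was the strain that differed. Pygb, the brain form of glycogen phosphorylase, which releases glucose from glycogen, had 857, 936 and 1097 CPM in NZO hearts, against 171, 188 and 202 CPM in NOD hearts (log2 fold change 2.36 ± 0.13 SE, adjusted p = 5.53e-23). Here NOD lay below all others, since the 6 other strain means were 364 to 932 CPM. The imprinted neighbours Igf2, a growth factor, and H19, a noncoding RNA expressed from the other parental copy, were both higher. Igf2 had 68.5, 99.6 and 109.8 CPM in NZO hearts, against 18.5, 22.1 and 24.1 CPM in NOD hearts (log2 fold change 2.13 ± 0.12 SE, adjusted p = 2.99e-22) and H19 had 40.3, 55.1 and 85.1 CPM in NZO hearts, against 11.5, 13.4 and 20.6 CPM in NOD hearts (log2 fold change 1.99 ± 0.18 SE, adjusted p = 4.86e-14). Other strains averaged 18.2 to 46.5 CPM for Igf2, below the NZO mean of 95.1 CPM.

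Pygb, Igf2 and H19 were also among the 12 largest positive differences of such genes, and the other 8 are given next; Lrrc15, Hrasls, Iqgap2, Art4 and Plac9b differed by more than Pygb, Igf2 and H19. Lrrc15, a membrane protein of activated fibroblasts, had 37.1, 52.8 and 57.7 CPM in NZO hearts, against 5.11, 6.76 and 7.88 CPM in NOD hearts (log2 fold change 2.98). Pcolce2, which enhances the processing of procollagen, had 41.6, 43.4 and 45.6 CPM in NZO hearts, against 8.31, 11.1 and 15 CPM in NOD hearts (log2 fold change 1.91). Acsl6, an acyl-CoA synthetase for long-chain fatty acids, had 15.2, 27.3 and 29 CPM in NZO hearts, against 3.77, 5.5 and 7.06 CPM in NOD hearts (log2 fold change 2.25). All NZO libraries exceeded all NOD libraries in each of them. Iqgap2, a scaffold of the cytoskeleton, had 16.3, 41.7 and 48.8 CPM in NZO hearts, against 4.38, 5.15 and 7.95 CPM in NOD hearts (log2 fold change 2.80). Art4, an ADP-ribosyltransferase of the red cell surface, averaged 20.7 ± 5.4 CPM in NZO and 3.5 ± 0.508 CPM in NOD. Ush1c, a scaffold known from hair cells of the ear, averaged 19.2 ± 1.88 CPM in NZO and 4.15 ± 0.633 CPM in NOD. Hrasls, a phospholipase and acyltransferase, averaged 22.6 ± 2.78 CPM in NZO and 3.02 ± 0.508 CPM in NOD, and the 6 other strains lay at 17.2 to 30.1 CPM, so NOD was the low strain. Plac9b averaged 20 ± 2.01 CPM in NZO and 3.4 ± 0.819 CPM in NOD, and the sum with its copies Plac9a and Gm9780 was still higher by a log2 fold change of 2.30.

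Pdk1 was lower in NZO. It encodes a pyruvate dehydrogenase kinase, an enzyme that holds pyruvate back from mitochondrial oxidation. Pdk1 had 48.5, 51 and 55.7 CPM in NZO hearts, against 319.6, 352 and 367 CPM in NOD hearts (log2 fold change -2.75 ± 0.12 SE, adjusted p = 1.72e-28). The 6 other strain means were 180 to 377 CPM, so NZO lay below all of them. Map1a, a microtubule-associated protein, had 29.4, 31.9 and 41.8 CPM in NZO hearts, against 137, 160.4 and 180.5 CPM in NOD hearts (log2 fold change -2.27 ± 0.099 SE, adjusted p = 5.26e-29); the other strains lay at 13.7 to 26.4 CPM, and NOD was the high strain. Ndrg4, which acts in heart growth in zebrafish, had 34.1, 56.7 and 67.4 CPM in NZO hearts, against 157, 199.6 and 248 CPM in NOD hearts (log2 fold change -1.87 ± 0.13 SE, adjusted p = 2.14e-19). Pccb, a subunit of the propionyl-CoA carboxylase that feeds odd-chain fats and some amino acids into the TCA cycle, had 21.6, 29.6 and 31.2 CPM in NZO hearts, against 73.5, 81.3 and 93.9 CPM in NOD hearts (log2 fold change -1.51 ± 0.058 SE, adjusted p = 6.99e-32). No library of NZO reached the lowest library of NOD in these 4 genes, which was a condition of naming them.

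Ephb1, an ephrin receptor, averaged 3.25 ± 0.566 CPM in NZO and 23.2 ± 2.32 CPM in NOD (log2 fold change -2.83). Osbpl6, an oxysterol-binding protein, averaged 8.3 ± 2.36 CPM in NZO and 38.3 ± 3.12 CPM in NOD. Trim7, a ubiquitin ligase that binds glycogenin, averaged 5.99 ± 1.59 CPM in NZO and 21.9 ± 2.67 CPM in NOD. The actin-associated Pdlim4 averaged 5.28 ± 1.11 CPM in NZO and 18.7 ± 2.97 CPM in NOD. A pair of genes of cilia and centrosomes was lower as well: Ift81 averaged 36 ± 3.02 CPM in NZO and 106 ± 14.9 CPM in NOD and Lrrcc1 averaged 6.06 ± 0.868 CPM in NZO and 18.2 ± 2.64 CPM in NOD. Pyurf averaged 15 ± 1.65 CPM in NZO and 42.1 ± 2.23 CPM in NOD. The nuclear noncoding RNA Neat1 averaged 615 ± 72.6 CPM in NZO and 894 ± 138 CPM in NOD, with an adjusted p of 0.0444; the call was lost without NZO_1, NZO_2, NZO_3, NZO_4, NZO_5, NZO_7, NZO_8, NOD_2, NOD_5, NOD_7 or NOD_8 (adjusted p from 0.0502 to 0.0827). Atp5g2, a subunit of the ATP synthase ring, was listed with 4.64, 8.2 and 10.9 CPM in NZO hearts, against 109, 118 and 142 CPM in NOD hearts, yet its reads cannot be told from those of Gm10175, an identical copy. The sum of the pair averaged 120 CPM in both strains, and its log2 fold change was 5.55e-04 (adjusted p = 0.996, edgeR).

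**Figure D2:**
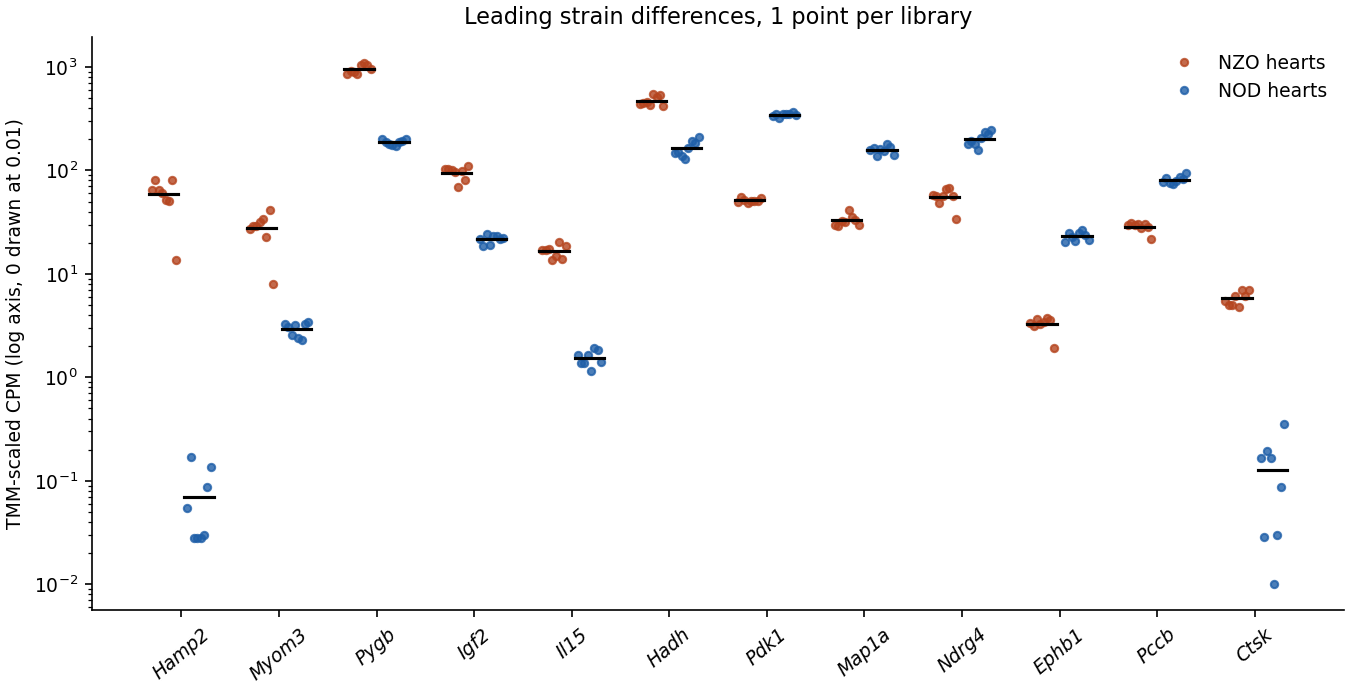
TMM-scaled CPM (y axis, log scale) of 12 genes in each of the 8 NZO libraries (left of each pair) and the 8 NOD libraries (right), with a line at the mean. The strains do not overlap in any of them, which for several was a condition of naming them. NZO_8 is the lowest NZO library for Hamp2 at 13.8 CPM and for Myom3 at 7.94 CPM.

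Some genes were all but confined to one of the strains. They are named here after their values were seen, among 85 genes past the test and at least 16-fold apart (25 higher, 60 lower in NZO). Hamp2, a relative of the iron hormone hepcidin, had 13.8, 62.7 and 81.2 CPM in NZO hearts, against 0.0279, 0.0424 and 0.17 CPM in NOD hearts (log2 fold change 9.62 ± 0.34 SE, adjusted p = 7.16e-30). Other strains averaged 0 to 4.59 CPM. Ppp1r1c, an inhibitor of protein phosphatase 1, had 6.33, 11.9 and 14.8 CPM in NZO hearts, against 0, 0.057 and 0.272 CPM in NOD hearts. Ctsk, which encodes the collagen-degrading protease cathepsin K, had 4.76, 5.75 and 7.04 CPM in NZO hearts, against 0, 0.126 and 0.354 CPM in NOD hearts (log2 fold change 5.44 ± 0.33 SE, adjusted p = 1.37e-21). The other strains lay at 2.97 to 6.73 CPM, so the near absence belonged to NOD. Scd4, a stearoyl-CoA desaturase, had 0.172, 0.465 and 1.26 CPM in NZO hearts, against 7.39, 10.1 and 18.4 CPM in NOD hearts (log2 fold change -4.22 ± 0.29 SE, adjusted p = 1.03e-18). Mndal, of the interferon-inducible p200 family, averaged 0.0706 ± 0.0756 CPM in NZO and 13.2 ± 2.91 CPM in NOD; the sum with its close copies Ifi203, Ifi204, Ifi205 and Mnda was lower by a log2 fold change of -0.68. Pgk1-rs7, a copy of the glycolytic gene Pgk1, averaged 127 ± 17.8 CPM in NZO and 0.264 ± 0.389 CPM in NOD, while Pgk1 itself averaged 152 ± 21.4 CPM in NZO and 283 ± 21.9 CPM in NOD. Their sum was 279 CPM in NZO and 283 CPM in NOD, a log2 fold change of -0.0211 (adjusted p = 0.879, edgeR).

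Genes encoded in mitochondrial DNA took a larger share of the counts in NZO hearts than in NOD hearts. These genes specify core subunits of the respiratory chain, while most other subunits come from the nucleus. Their share was 22.9 ± 1.33% of counts in NZO and 19.5 ± 0.878% in NOD (SD, n = 8 each), a difference of 3.46 percentage points (exact two-sided permutation test over 12870 divisions, p = 3.11e-04). Libraries of the other strains had 27.5 to 31.1% in B6, 25.1 to 29.2% in 129 and 20.3 to 23.7% in AJ. They had 21.4 to 24.2% in Cast, 19.6 to 25.2% in WSB and 15.9 to 19.5% in PWK. Both NZO and NOD thus lay within the range of the others. Of the 13 protein genes 8 rose and none fell (median log2 fold change 0.31). The cytochrome oxidase gene mt-Co1 had 76992, 94719 and 102895 CPM in NZO hearts, against 64704, 70368 and 74303 CPM in NOD hearts (log2 fold change 0.43 ± 0.065 SE, adjusted p = 3.42e-07) and mt-Cytb had 26221, 32182 and 36243 CPM in NZO hearts, against 20483, 22464 and 23721 CPM in NOD hearts (log2 fold change 0.54 ± 0.065 SE, adjusted p = 5.82e-10). No NZO library overlapped NOD in either. mt-Nd4 averaged 24849 ± 2591 CPM in NZO and 17333 ± 1243 CPM in NOD, and mt-Co2 averaged 8924 ± 1309 CPM in NZO and 5915 ± 732 CPM in NOD. Reads of mt-Co2 cannot be told from those of its identical copy Gm28661. Summed with Gm28661 and Gm13341 it averaged 23712 CPM in NZO and 16212 CPM in NOD (log2 fold change 0.55). The shares above leave out reads listed under these copies, and mt-Co2 itself averaged only 23.7 CPM in Cast and 39.3 CPM in PWK. Of the 32 nuclear-encoded subunits on the list only 1 rose and 2 fell, with a median log2 fold change of -0.06. Among these Atp5b, the catalytic subunit of ATP synthase, averaged 3235 ± 164 CPM in NZO and 3595 ± 324 CPM in NOD and fell, a call lost without NZO_8, NOD_6, NOD_7 or NOD_8 (adjusted p from 0.0501 to 0.0948). Rn18s-rs5, a copy of the 18S ribosomal RNA, which polyA selection should remove, averaged 39273 ± 11753 CPM in NZO and 22136 ± 6971 CPM in NOD. It differed in the same direction (log2 fold change 0.83 ± 0.24 SE, adjusted p = 0.0077), and its part in the mitochondrial share was not tested.

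Of the lists of fuel metabolism, those of fatty acid oxidation, PPAR-alpha targets and the TCA cycle had shares of called genes below the 25.1% over all genes, at 18.2%, 13.8% and 12.9%, while those of ketone and branched-chain use, glucose, and fat and cholesterol synthesis had 37.5%, 31.0% and 29.0%. Of 22 fatty acid oxidation genes 2 rose and 2 fell. Hadh, the dehydrogenase of the third step of beta-oxidation for medium and short chains, had 416, 455 and 552 CPM in NZO hearts, against 128, 159 and 208 CPM in NOD hearts (log2 fold change 1.53 ± 0.10 SE, adjusted p = 1.11e-19). The other strains lay at 414 to 508 CPM, so NOD was the low strain. Echs1, the hydratase of the step before, had 162, 215 and 228 CPM in NZO hearts, against 242, 280.0 and 334 CPM in NOD hearts (log2 fold change -0.44 ± 0.085 SE, adjusted p = 3.88e-05). Crat, which buffers acetyl groups as acetylcarnitine, averaged 439.6 ± 71.2 CPM in NZO and 553 ± 43.8 CPM in NOD and fell. Acadvl averaged 1008 ± 160.4 CPM in NZO and 869 ± 92 CPM in NOD; its call (adjusted p = 0.0207) was lost without NZO_5, NZO_6, NZO_8 or NOD_3 (adjusted p from 0.0569 to 0.0817).

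Among 29 targets of PPAR-alpha, the nuclear receptor that switches the heart to fat, and related lipid genes, 2 rose and 2 fell. Ppargc1a, a coactivator of mitochondrial biogenesis, had 82.8, 92.7 and 124 CPM in NZO hearts, against 129.8, 151 and 200.4 CPM in NOD hearts (log2 fold change -0.72 ± 0.13 SE, adjusted p = 1.21e-05). Of 31 genes of the TCA cycle and pyruvate entry 1 rose and 3 fell. Suclg2, a subunit of the GTP-forming succinyl-CoA synthetase, was the one that rose, with 154, 171 and 178 CPM in NZO hearts, against 90.4, 97.4 and 104 CPM in NOD hearts (log2 fold change 0.81 ± 0.098 SE, adjusted p = 7.83e-10); with its copy Gm15163 added the log2 fold change was again 0.81. Fh1, the fumarase, had 201, 242 and 260.2 CPM in NZO hearts, against 253, 284 and 334 CPM in NOD hearts (log2 fold change -0.26 ± 0.054 SE, adjusted p = 1.00e-04) and fell. Of 16 genes of ketone and branched-chain amino acid use 1 rose and 5 fell. Bcat2, the first enzyme of branched-chain breakdown, averaged 88.2 ± 11.7 CPM in NZO and 57 ± 7.48 CPM in NOD and rose, while Mccc1, a later enzyme of leucine breakdown, averaged 43.6 ± 5.93 CPM in NZO and 58.2 ± 4.45 CPM in NOD and fell. The count of 5 was 2 without NZO_8 and 3 without NZO_5.

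Of 29 genes of glucose uptake, glycogen and glycolysis 2 rose, Pygb and Ugp2, and 7 fell. Ugp2, which makes the UDP-glucose for glycogen, had 199, 311 and 358 CPM in NZO hearts, against 214, 224 and 253 CPM in NOD hearts (log2 fold change 0.39 ± 0.11 SE, adjusted p = 0.00355). Pfkl, the liver form of phosphofructokinase, had 95.6, 109 and 121 CPM in NZO hearts, against 144, 158 and 174 CPM in NOD hearts (log2 fold change -0.54 ± 0.10 SE, adjusted p = 3.22e-05) and Pfkfb1, which sets the activator of that enzyme, averaged 8.14 ± 1.74 CPM in NZO and 13.1 ± 1.98 CPM in NOD. Pgk1 is among the 7 and is uncertain because of its copy. Of 31 genes of fat and cholesterol synthesis 1 rose and 8 fell. Srebf1, the transcription factor of the pathway, averaged 22.5 ± 1.44 CPM in NZO and 30.6 ± 6.18 CPM in NOD. Thrsp, a lipogenic regulator from the list of adipocyte markers, had 5.04, 6.16 and 7.33 CPM in NZO hearts, against 13.3, 15.5 and 19.5 CPM in NOD hearts (log2 fold change -1.36 ± 0.31 SE, adjusted p = 4.33e-04). Scd1 and Scd2, 95.5% identical where they align, summed to 85.1 CPM in NZO and 210 CPM in NOD (log2 fold change -1.30 ± 0.44 SE, adjusted p = 0.0237, edgeR). The fat-cell markers Cfd and Car3 went with Scd1 in the NOD libraries given next. Scd1 had 272, 367 and 201 CPM in NOD_1, NOD_3 and NOD_5, where the adipokine Cfd had 30.5, 21.7 and 12.7 CPM and Car3, a carbonic anhydrase of fat and muscle, had 94.5, 70.9 and 48.1 CPM. NOD_6 had 50.7 CPM of Scd1, 0.773 CPM of Cfd and 4.25 CPM of Car3. The sum of all 18 adipocyte markers did not keep this order. It was 1146, 1033 and 839 CPM in NOD_1, NOD_3 and NOD_5, and 926 CPM in NOD_6. By strain, Cfd averaged 1.82 ± 1.72 CPM in NZO and 10.9 ± 10.3 CPM in NOD, and Car3 averaged 8.31 ± 4.84 CPM in NZO and 37.7 ± 31.4 CPM in NOD (SD, n = 8 each). Of the 18 adipocyte markers 3 fell (Thrsp, Car3 and Cfd) and none rose. Their summed level was 654 to 1164 CPM in NZO and 839 to 1146 CPM in NOD, and their part in the Scd1 difference was not tested. In libraries numbered 1 to 4 the sum was 654 to 733 CPM in NZO and 976 to 1146 CPM in NOD, without overlap. In those numbered 5 to 8 it was 821 to 1164 CPM in NZO and 839 to 950 CPM in NOD. Of 30 genes listed for insulin and IGF-1 signalling, Igfbp4 and Akt1 rose, and Igfbp6 and Trib3 fell. Pdk1 also stands on that list and fell. It is the pyruvate dehydrogenase kinase described above and is not read here as a gene of insulin signalling. Igfbp4, which binds insulin-like growth factors, averaged 109 ± 28.6 CPM in NZO and 75.7 ± 9.73 CPM in NOD and Igfbp6 averaged 14.4 ± 1.72 CPM in NZO and 23.4 ± 2.89 CPM in NOD.

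Of 36 oxidative stress and glutathione genes 3 rose and 9 fell. Nnt, the transhydrogenase that supplies mitochondrial NADPH, had 493, 543 and 590.0 CPM in NZO hearts, against 754, 808 and 896 CPM in NOD hearts (log2 fold change -0.58 ± 0.13 SE, adjusted p = 6.53e-04). B6, which carries a known deletion in Nnt, averaged 442 CPM. Srxn1, which repairs oxidised peroxiredoxins, averaged 19.4 ± 2.2 CPM in NZO and 15.2 ± 2.49 CPM in NOD and rose. Sod2, the mitochondrial superoxide dismutase, had 410.0, 482 and 505 CPM in NZO hearts, against 567, 644 and 698 CPM in NOD hearts (log2 fold change -0.43 ± 0.082 SE, adjusted p = 3.50e-05). Gpx3, a secreted glutathione peroxidase, averaged 222 ± 56.9 CPM in NZO and 331 ± 54.4 CPM in NOD and fell. The glutathione transferases went both ways: Gstm4 had 16.3, 18 and 20.1 CPM in NZO hearts, against 6.61, 7.63 and 10 CPM in NOD hearts (log2 fold change 1.23 ± 0.10 SE, adjusted p = 1.76e-15) and Gstm2 had 17.2, 30.8 and 40.9 CPM in NZO hearts, against 62.3, 74.6 and 80.8 CPM in NOD hearts (log2 fold change -1.26 ± 0.10 SE, adjusted p = 1.09e-15). Glo1, whose copy number varies among mouse strains, averaged 77.5 ± 3.53 CPM in NZO and 74.2 ± 4.17 CPM in NOD and did not pass the test (adjusted p = 0.538). Nmnat3, which makes NAD in mitochondria, averaged 3.81 ± 0.464 CPM in NZO and 8.57 ± 0.936 CPM in NOD and fell.

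**Figure D3:**
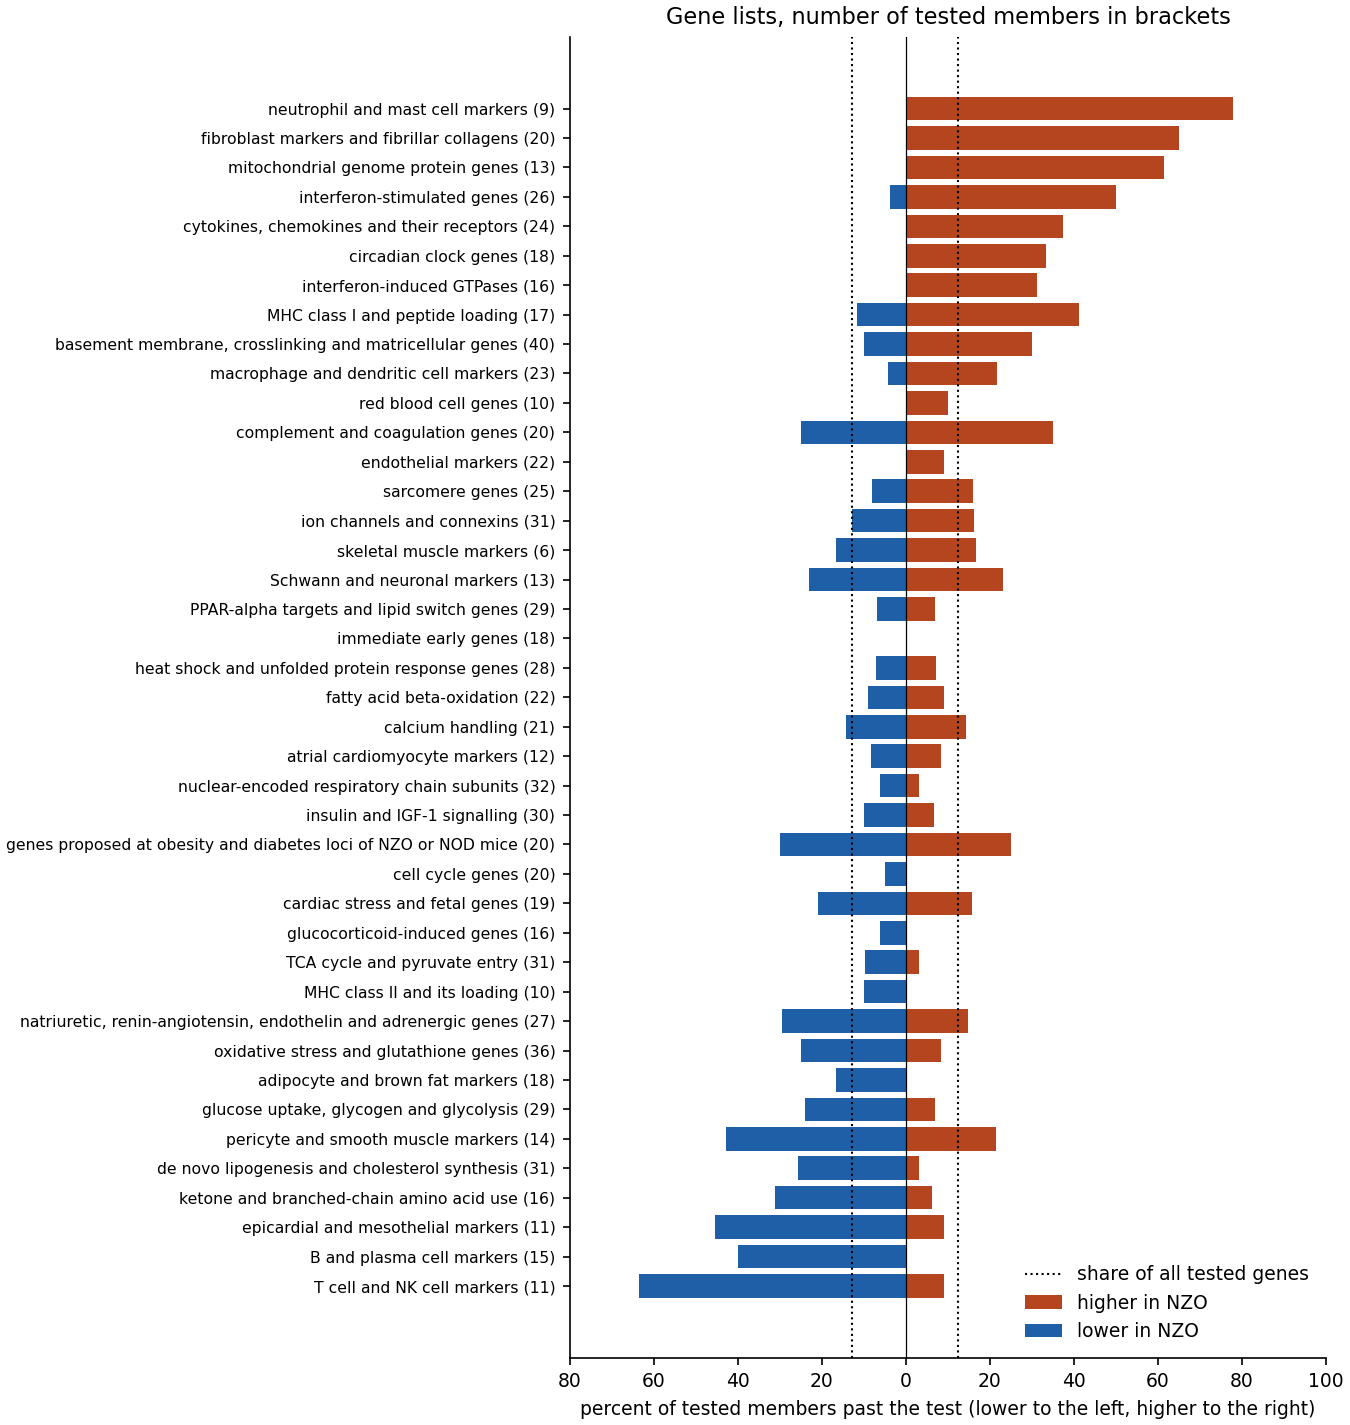
Percent of each list's tested members that were higher in NZO (right) or lower in NZO (left), with the number of tested members in brackets. Dotted lines mark the 12.3% and 12.8% of all tested genes; the neutrophil, fibroblast, mitochondrial and interferon lists reach far to the right, and the T cell and B cell lists to the left.

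The strain difference in genes of fat oxidation depended on the library number, a pattern chosen for description after the values were seen. In libraries numbered 5 to 8, those with Ddx3y, several PPAR-alpha targets had higher means in NZO than in NOD, and in libraries numbered 1 to 4 lower means. Pdk4, a second pyruvate dehydrogenase kinase, averaged 795 CPM in NZO 1 to 4 and 2959 CPM in NZO 5 to 8, against 1926 CPM in NOD 1 to 4 and 1071 CPM in NOD 5 to 8. The strain difference in numbers 5 to 8 minus that in numbers 1 to 4 was 2.75 ± 0.34 on the log2 scale, adjusted p = 0.00201, edgeR. Angptl4, a secreted inhibitor of lipoprotein lipase, averaged 9.41 and 54.8 CPM in NZO 1 to 4 and NZO 5 to 8, against 35.3 and 23.4 CPM in NOD 1 to 4 and NOD 5 to 8 (3.14 ± 0.37 on the log2 scale, adjusted p = 0.00157, edgeR). Ucp3, a mitochondrial uncoupling protein of muscle, averaged 31.4 and 81.3 CPM in NZO 1 to 4 and NZO 5 to 8, against 64 and 37.4 CPM in NOD 1 to 4 and NOD 5 to 8 (2.16 ± 0.43 on the log2 scale, adjusted p = 0.029, edgeR). Within NZO, no library numbered 1 to 4 reached any library numbered 5 to 8 in these 3 genes.

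Such a difference between the number groups passed the test for 341 of 16425 genes (2.08%), 150 positive (0.913%) and 191 negative (1.16%). Of the 29 PPAR-alpha targets 11 were positive and none negative, with a median difference of 0.39 against 0.003 over all genes. Of 22 fatty acid oxidation genes 5 were positive and none negative. Beyond those already given, the acyl-CoA thioesterases Acot1 (2.52) and Acot2 (1.54), the carnitine transferase Cpt1a (0.61), the reductase Decr1 (0.59), the trifunctional protein subunit Hadha (0.38) and the droplet protein Plin2 (0.68) had positive differences on the log2 scale, each past an adjusted p of 0.05. Acot1 and Acot2 are near-identical and may share reads. Negative differences were seen for 4 of 16 ketone and branched-chain genes, a count that became 8 without NZO_8, and for 4 of 29 glucose genes, which became 5. Among these were Bckdhb, a subunit of the branched-chain keto acid dehydrogenase (-0.79), Ivd (-0.65), Ppm1k (-0.64), the insulin-responsive glucose transporter Slc2a4 (-0.62) and the muscle enolase Eno3 (-0.64).

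Within NZO, numbers 5 to 8 differed from 1 to 4 in 604 genes (3.68%), and within NOD in 133 (0.81%). Of the PPAR-alpha list 17 of 29 rose in NZO 5 to 8 against NZO 1 to 4, and none in NOD. Of the fatty acid oxidation list 16 of 22 rose in NZO and 1 in NOD. Without NZO_8 the 341 genes became 350, of which 276 were shared, the 604 became 453, and the 133 became 368, the last by a factor above 1.5. The 11 PPAR-alpha targets then numbered 12. What the library numbers stand for is not in the labels, so sex, order of processing and other things that follow the number cannot be told apart.

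**Figure D4:**
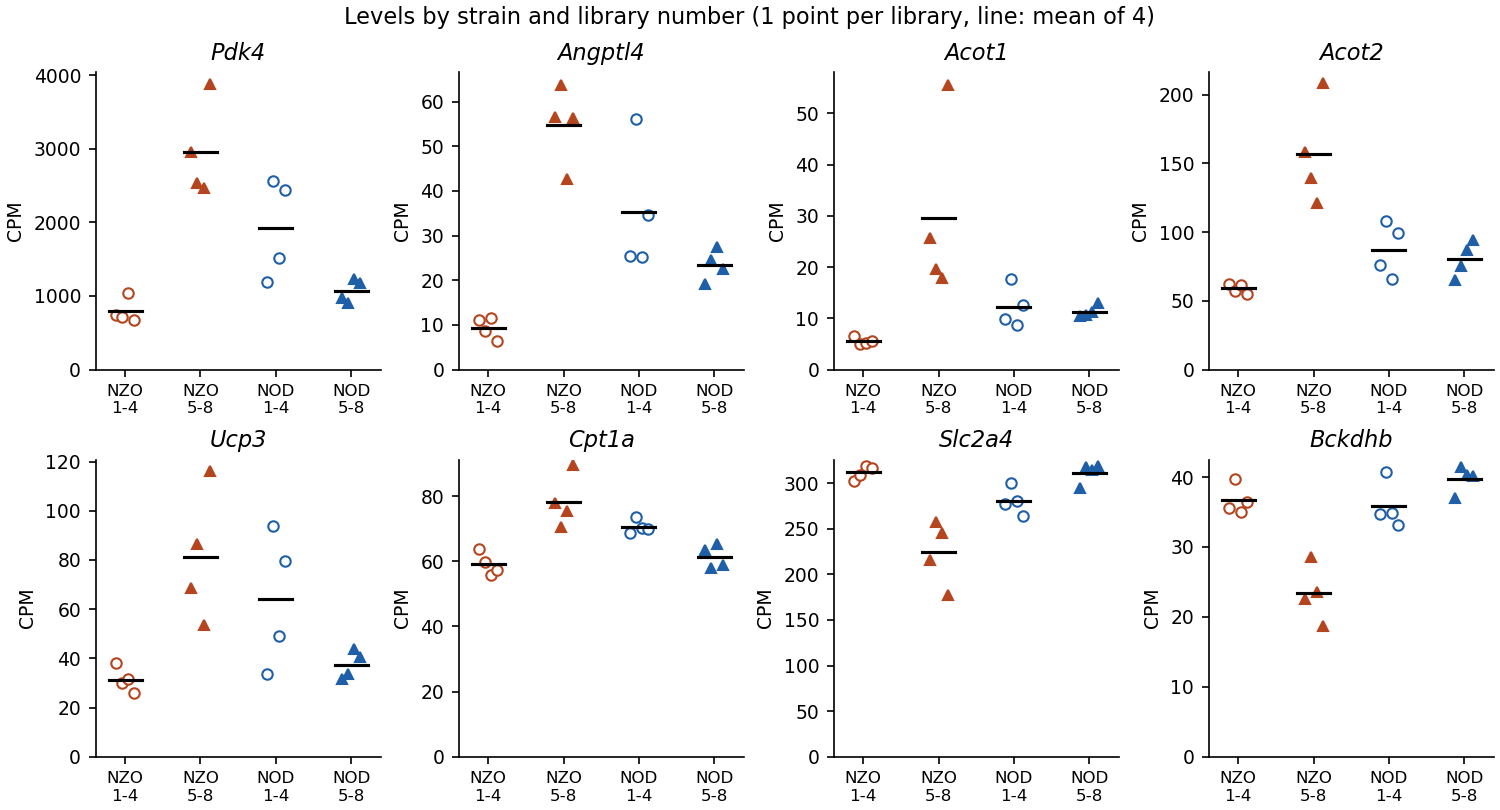
CPM per library (y axis, from 0) of 8 metabolic genes in NZO numbers 1 to 4, NZO 5 to 8, NOD 1 to 4 and NOD 5 to 8, with a line at each mean of 4. In the first 6 panels NZO 5 to 8 holds the highest mean and NZO 1 to 4 the lowest; Slc2a4 and Bckdhb are lowest in NZO 5 to 8.

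Of 26 interferon-stimulated genes 13 were higher and 1 lower in NZO hearts; leaving out NZO_5 reduced the 13 to 7. Type I and type II interferons signal through STAT proteins to the IRF and ISGF3 factors, which bind a short element in the promoters of antiviral genes. In 3 of the members this element, searched as GAAA, any 2 bases and GAAA again on either strand and shown in capitals, sits in the 250 bases before the start in the RefSeq promoters of GRCm38, which carry the B6 sequence and not that of NZO or NOD.
Rsad2, chr12:26456453-26456702, minus strand: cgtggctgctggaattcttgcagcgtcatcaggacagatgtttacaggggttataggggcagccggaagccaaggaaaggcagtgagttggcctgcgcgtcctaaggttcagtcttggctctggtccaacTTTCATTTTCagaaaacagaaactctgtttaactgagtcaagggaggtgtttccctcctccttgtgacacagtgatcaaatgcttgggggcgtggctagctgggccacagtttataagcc
Ifit1, chr19:34640639-34640888, plus strand: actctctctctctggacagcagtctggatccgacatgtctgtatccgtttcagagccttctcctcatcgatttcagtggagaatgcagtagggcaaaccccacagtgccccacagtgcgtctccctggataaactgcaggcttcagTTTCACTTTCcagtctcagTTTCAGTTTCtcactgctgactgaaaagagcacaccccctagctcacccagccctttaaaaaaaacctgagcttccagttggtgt
Isg15, chr4:156200819-156201068, minus strand: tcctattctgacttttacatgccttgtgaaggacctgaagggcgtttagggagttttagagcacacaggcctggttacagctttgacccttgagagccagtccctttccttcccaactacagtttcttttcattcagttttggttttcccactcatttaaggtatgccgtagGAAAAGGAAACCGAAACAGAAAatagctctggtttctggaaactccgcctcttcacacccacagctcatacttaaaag
These 3 are shown from the 5 members that passed the strain test and hold the element. Isg15 averaged 2.18 ± 0.761 CPM in NZO and 1.27 ± 0.32 CPM in NOD and Ifit1 averaged 5.03 ± 1.83 CPM in NZO and 3.4 ± 0.415 CPM in NOD, and the strains overlapped in both. A match was held by 9 of the 18 list members that have a promoter there, against 3.46% of 27025 genes, with overlapping matches counted. Of the 9 members past the strain test with a promoter 5 held one. Cxcl10, Ifit3, Oas3 and Stat2 held one without passing, so called and uncalled members alike carried the element. Isg15 and Ifit1 lost their call in many of the settings that leave out 1 library. For Isg15 these were NZO_2, NZO_4, NZO_5, NZO_8, NOD_4, NOD_6, NOD_7 or NOD_8 (adjusted p from 0.0531 to 0.123), and for Ifit1 all libraries but NZO_3, NZO_4, NZO_6, NZO_7 and NOD_3 (adjusted p from 0.0524 to 0.206).

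The median log2 fold change of the 26 interferon-stimulated genes was 0.52. Rsad2, or viperin, had 13.1, 18.9 and 24.6 CPM in NZO hearts, against 7.67, 10.2 and 13 CPM in NOD hearts (log2 fold change 0.81 ± 0.17 SE, adjusted p = 1.42e-04). Irf7, the factor that amplifies the response, had 4.32, 7.57 and 13 CPM in NZO hearts, against 3.1, 4.16 and 4.77 CPM in NOD hearts (log2 fold change 1.06 ± 0.20 SE, adjusted p = 3.66e-05), and the strains overlapped. Ifih1, a sensor of double-stranded RNA, averaged 12.6 ± 1.69 CPM in NZO and 7.44 ± 0.878 CPM in NOD and Ifit2 averaged 15.7 ± 2.58 CPM in NZO and 10.3 ± 1.7 CPM in NOD, both without overlap. Oas1a, which makes the activator of RNase L, averaged 3.24 ± 0.838 CPM in NZO and 1.63 ± 0.33 CPM in NOD. NZO_5 had the highest summed level of the list, 421 CPM, while the other NZO libraries had 232 to 308 CPM and the NOD libraries 182 to 245 CPM. The count of 13 that rose was also reduced, to 8, without NOD_7 and without NOD_8. Of 16 interferon-induced GTPases 5 rose, but 1 without NZO_5.

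The antiviral GTPases Mx1 and Mx2 went opposite ways. Many laboratory strains carry defective alleles of Mx1. Mx1 had 3.44, 5.78 and 9.08 CPM in NZO hearts, against 0.174, 0.225 and 0.393 CPM in NOD hearts (log2 fold change 4.53 ± 0.28 SE, adjusted p = 2.34e-21), and Mx2 was listed at 0 in all 8 NZO libraries, against 1.20, 1.82 and 2.20 CPM in NOD hearts. Against the floor of 3 counts over the NZO group, Mx2 was at least 147-fold lower. The pair are over 95% identical where they align, so reads may be split between them, and their sum averaged 6.19 CPM in NZO and 2.06 CPM in NOD (log2 fold change 1.59 ± 0.18 SE, adjusted p = 1.62e-10, edgeR).

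Of 17 genes of MHC class I and peptide loading 7 rose and 2 fell; the 2 became 0 without NOD_3 and 1 without NZO_6, NZO_7 or NOD_2, and without NZO_5 the 7 became 4. Tapbp, the chaperone tapasin, averaged 57.8 ± 7.28 CPM in NZO and 41.4 ± 2.58 CPM in NOD and the immunoproteasome subunit Psmb10 averaged 21.8 ± 2.78 CPM in NZO and 16.2 ± 1.44 CPM in NOD. H2-T23, a nonclassical class I gene, had 16.3, 20.1 and 35.7 CPM in NZO hearts, against 5.53, 8.97 and 12.2 CPM in NOD hearts (log2 fold change 1.36 ± 0.20 SE, adjusted p = 1.03e-07). H2-T22 averaged 17.7 ± 4.33 CPM in NZO and 0.63 ± 0.411 CPM in NOD; summed with its near copy H2-T10 it was higher by a log2 fold change of 0.86. H2-K1 averaged 56.2 ± 20.9 CPM in NZO and 34 ± 9.24 CPM in NOD, and its call (adjusted p = 0.0149) was lost in the sum with H2-D1 (adjusted p = 0.335) and without NZO_5 (adjusted p = 0.0661). NZO and NOD carry different MHC haplotypes, so reads of these genes may map unequally, which was not tested.

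Il15, a cytokine that maintains natural killer and memory T cells, had the largest fold change of the cytokine list, with 13.5, 16.9 and 20.4 CPM in NZO hearts, against 1.15, 1.53 and 1.93 CPM in NOD hearts (log2 fold change 3.42 ± 0.14 SE, adjusted p = 3.11e-30). The NZO mean of 16.6 CPM was close to that of B6 (15.9 CPM), with PWK at 11.4 CPM and Cast at 10.3 CPM. The NOD mean of 1.55 CPM was close to those of 129, AJ and WSB (1.17, 2.33 and 2.37 CPM). Of 24 cytokine and chemokine genes 9 rose and none fell, and without NZO_8 6 rose and 1 fell. Ccl2, which recruits monocytes, averaged 2.85 ± 0.543 CPM in NZO and 1.46 ± 0.522 CPM in NOD and Cxcl14 averaged 24 ± 9.78 CPM in NZO and 13.4 ± 3.43 CPM in NOD. Of 20 complement and coagulation genes 7 rose and 5 fell; 3 fell without NZO_5. C1s1, the protease of the classical pathway, had 59.8, 63.9 and 139 CPM in NZO hearts, against 31.1, 36.3 and 51.3 CPM in NOD hearts (log2 fold change 0.88 ± 0.14 SE, adjusted p = 5.79e-07) with no overlap. C7, of the membrane attack complex, averaged 6.2 ± 3.7 CPM in NZO and 19.2 ± 13.6 CPM in NOD and fell. Its level followed the library number in both strains, with means of 3.63 CPM in NZO 1 to 4 and 8.78 CPM in NZO 5 to 8, against 7.03 CPM in NOD 1 to 4 and 31.4 CPM in NOD 5 to 8. Neither strain's number groups overlapped. C3 had 235, 280.4 and 1555 CPM in NZO hearts, against 173, 221 and 317 CPM in NOD hearts; without NZO_8 its log2 fold change of 0.92 became 0.27 (adjusted p = 0.256).

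Of 20 genes proposed at obesity and diabetes loci of NZO or NOD mice 5 rose and 6 fell. Ifi202b, proposed as an obesity gene of NZO, had 9.39, 10.3 and 28.3 CPM in NZO hearts, against 3.83, 4.22 and 5.52 CPM in NOD hearts (log2 fold change 1.57 ± 0.17 SE, adjusted p = 9.97e-11), and it averaged 0 CPM in B6, which lacks it. Ctla4, an inhibitory receptor of T cells that is a NOD diabetes candidate, had 3.2, 4.17 and 4.44 CPM in NZO hearts, against 0.824, 1.12 and 1.46 CPM in NOD hearts (log2 fold change 1.80 ± 0.22 SE, adjusted p = 5.24e-10). Lepr, the leptin receptor, averaged 15.8 ± 1.87 CPM in NZO and 11.2 ± 1.76 CPM in NOD and rose. Abcg1, a cholesterol exporter, averaged 4.15 ± 0.411 CPM in NZO and 6.93 ± 1.11 CPM in NOD and fell. Scd1 and Nmnat3 are on this list too.

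Fibroblast and fibrillar collagen genes were higher in NZO as a group: 13 of 20 rose and none fell (median log2 fold change 0.45). The summed level of the list was 3544 to 4192 CPM in NZO libraries and 2693 to 3488 CPM in NOD libraries, without overlap. Pdgfra, a defining receptor of cardiac fibroblasts, had 64.4, 77.1 and 84.4 CPM in NZO hearts, against 44.3, 52.7 and 57.7 CPM in NOD hearts (log2 fold change 0.54 ± 0.072 SE, adjusted p = 8.46e-09). Col1a1 had 176, 209 and 231 CPM in NZO hearts, against 116, 129 and 167 CPM in NOD hearts (log2 fold change 0.59 ± 0.19 SE, adjusted p = 0.0174), and Col1a2 averaged 231 ± 22.8 CPM in NZO and 172 ± 12.5 CPM in NOD. Col5a2, which nucleates collagen I fibrils, had 56.2, 61 and 71.6 CPM in NZO hearts, against 33.7, 37.7 and 47.6 CPM in NOD hearts (log2 fold change 0.66 ± 0.10 SE, adjusted p = 5.81e-07). Postn, made by activated fibroblasts, averaged 73.6 ± 7.62 CPM in NZO and 46.2 ± 10 CPM in NOD, and Fbln1 averaged 112 ± 30.3 CPM in NZO and 73.9 ± 15.9 CPM in NOD. With the libraries numbered 1 to 4 alone 2 of 20 passed, and with 5 to 8 alone 10. Leaving out NZO_8, NOD_3 and NOD_5 together left 9, and Col1a2 was not among them (adjusted p = 0.0644).

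Of 40 genes of basement membrane, crosslinking and matrix turnover 12 rose and 4 fell. Col8a1, a short-chain collagen, had 20.6, 47.3 and 61.1 CPM in NZO hearts, against 17.5, 21.8 and 29.1 CPM in NOD hearts (log2 fold change 0.98 ± 0.15 SE, adjusted p = 2.41e-07). Mmp3, a secreted metalloproteinase, had 3.6, 4.83 and 11.6 CPM in NZO hearts, against 0.087, 0.489 and 1.09 CPM in NOD hearts (log2 fold change 3.42 ± 0.35 SE, adjusted p = 3.74e-12), and Mmp14, which activates other metalloproteinases, averaged 21.5 ± 4.19 CPM in NZO and 14.7 ± 1.85 CPM in NOD. Lamb2, a laminin chain, had 342, 354 and 399.6 CPM in NZO hearts, against 469, 503 and 538 CPM in NOD hearts (log2 fold change -0.46 ± 0.049 SE, adjusted p = 1.17e-11) and Ltbp1, which stores TGF-beta in the matrix, averaged 50.5 ± 2.98 CPM in NZO and 69.9 ± 5.23 CPM in NOD; both fell without overlap. Of 11 epicardial and mesothelial markers 1 rose and 5 fell. Tbx18 averaged 7.38 ± 0.66 CPM in NZO and 4.44 ± 0.742 CPM in NOD and rose, whereas Wt1, a transcription factor of the epicardium, had 4.09, 6.15 and 8.81 CPM in NZO hearts, against 7.31, 11.6 and 13.3 CPM in NOD hearts (log2 fold change -0.83 ± 0.16 SE, adjusted p = 4.20e-05) and Upk3b averaged 21.2 ± 3.35 CPM in NZO and 33.6 ± 7.74 CPM in NOD. The count of 5 was 3 without any one of NZO_2, NZO_3, NZO_7, NOD_1, NOD_5 or NOD_8.

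Of 14 pericyte and smooth muscle markers 3 rose and 6 fell. Pdgfrb, the pericyte receptor, averaged 60.1 ± 7.51 CPM in NZO and 47.6 ± 3.69 CPM in NOD and rose. Acta2, the smooth muscle actin, had 60.3, 71.6 and 81.4 CPM in NZO hearts, against 78.3, 106 and 134 CPM in NOD hearts (log2 fold change -0.62 ± 0.15 SE, adjusted p = 0.00126) and Abcc9, the sulfonylurea receptor of cardiac and vascular potassium channels, had 259.5, 268 and 302 CPM in NZO hearts, against 329, 392 and 426 CPM in NOD hearts (log2 fold change -0.51 ± 0.12 SE, adjusted p = 0.00111). Of 22 endothelial markers 2 rose, Emcn (42.4 ± 3.52 CPM in NZO and 29.6 ± 3.55 CPM in NOD) and Plvap (16.7 ± 4.47 CPM in NZO and 10.7 ± 1.33 CPM in NOD), and none fell.

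Counts of immune cell markers called rested in part on a few libraries. The summed T cell and NK cell markers came to 8.94 to 14.1 CPM in NZO and to 6.75 to 24.2 CPM in 7 NOD libraries, with 107 CPM in NOD_5. The kinase Lck had 0.207, 0.295 and 0.793 CPM in NZO hearts, against 0, 0.305 and 33.1 CPM in NOD hearts and Cd4 had 0.181, 0.453 and 1.37 CPM in NZO hearts, against 0.572, 0.873 and 24.7 CPM in NOD hearts. Of 11 markers tested 7 fell and 1 rose. Without NOD_5 3 fell, and without NZO_8, NOD_3 and NOD_5 none fell and 2 rose. For Lck the log2 fold change of -3.76 became 0.53 without these 3 libraries, which also ended the call of Cd4 (adjusted p = 0.0682); for Lck the p was then 0.513. B and plasma cell markers summed to 13.5 to 26.0 CPM in NZO and to 4.87 to 64.2 CPM in 7 NOD libraries, with 309 CPM in NOD_3. Of 15 markers 6 fell, against 3 without NOD_3. The immunoglobulin joining chain Jchain had 0, 0.0913 and 0.332 CPM in NZO hearts, against 0.203, 3.08 and 23.6 CPM in NOD hearts (log2 fold change -5.19 ± 0.99 SE, adjusted p = 3.86e-05), so its medians differed as well. The heavy chain Ighm averaged 9.05 ± 1.92 CPM in NZO and 31.4 ± 46 CPM in NOD, with a call lost without NZO_6, NZO_7 or NOD_3 (adjusted p from 0.0511 to 0.374). Igkc averaged 1.28 ± 0.416 CPM in NZO and 12.7 ± 20.5 CPM in NOD, and its call was lost without NZO_8, NOD_3 and NOD_5 together (adjusted p = 0.0898).

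Neutrophil and mast cell markers rose in 7 of 9 genes, or 4 without NZO_8. Their sum was 208 CPM in NZO_8, 14.3 to 18.5 CPM in the other NZO libraries and 7.74 to 13.1 CPM in NOD libraries. The neutrophil genes S100a8 and S100a9 reached 64.0 and 87.4 CPM in NZO_8 alone, with medians of 0.467 and 0.714 CPM over NZO and 0.201 and 0.476 CPM over NOD; both calls were lost without it (adjusted p = 0.353 and 0.244). Mast cell proteases did not rest on that library: Cpa3 had 1.21, 1.54 and 2.08 CPM in NZO hearts, against 0.341, 0.455 and 1.1 CPM in NOD hearts (log2 fold change 1.47 ± 0.28 SE, adjusted p = 2.45e-05) and Mcpt4 averaged 2.04 ± 0.453 CPM in NZO and 0.73 ± 0.527 CPM in NOD. Macrophage and dendritic cell markers summed to 898 CPM in NZO_8, 306 to 406 CPM in the other NZO libraries and 284 to 446 CPM in NOD libraries; 5 of 23 rose, or 3 without NZO_8, and 1 fell. Csf1r, the receptor that sustains macrophages, had 33.6, 34.8 and 74.4 CPM in NZO hearts, against 26.6, 28.4 and 31.8 CPM in NOD hearts (log2 fold change 0.48 ± 0.11 SE, adjusted p = 6.55e-04).

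**Figure D5:**
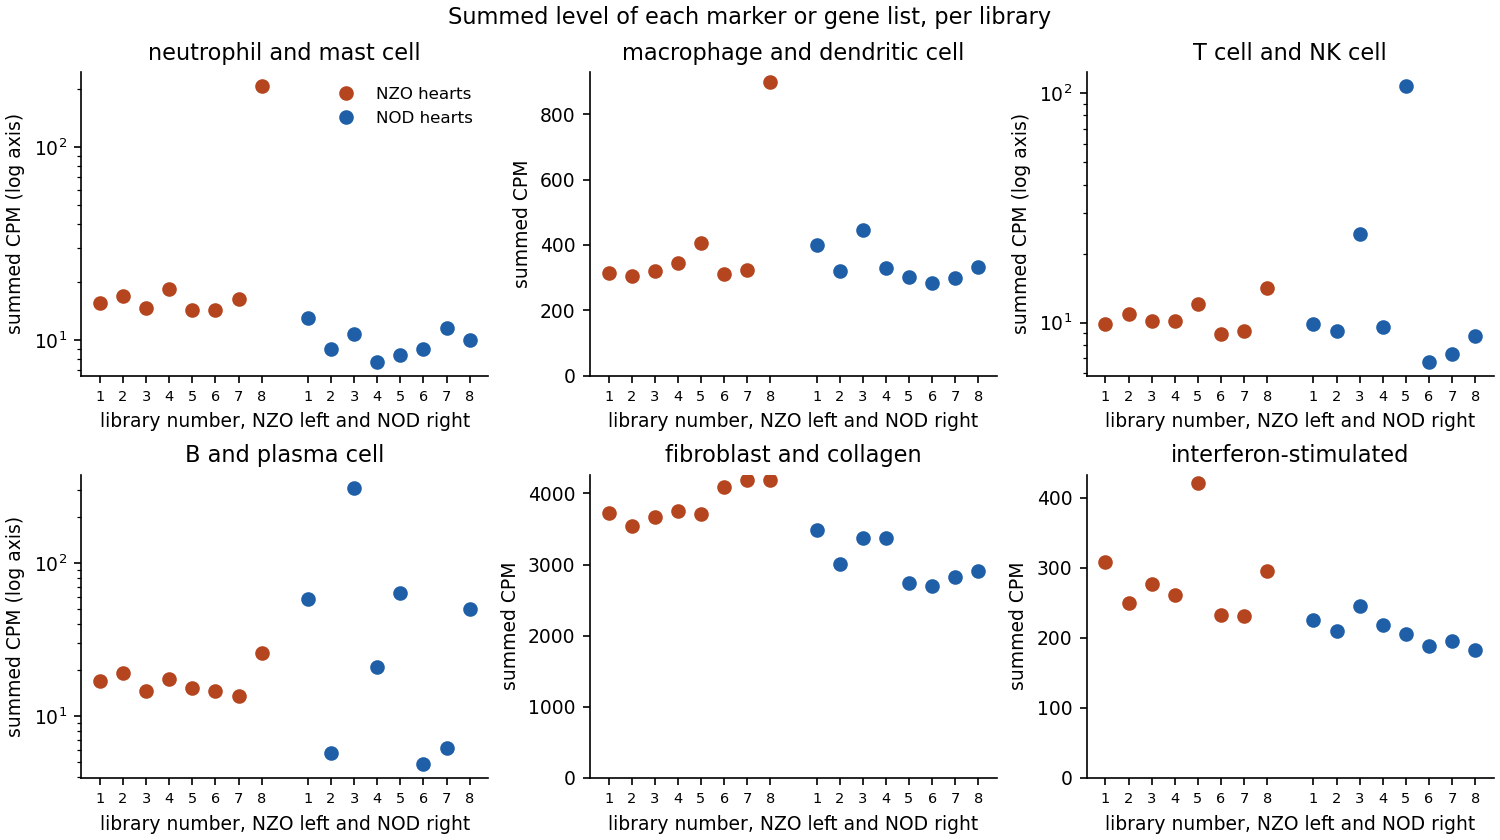
Summed CPM (y axis, log scale in the panels marked so) of 6 gene lists in each library, NZO left and NOD right. NZO_8 stands out in the neutrophil and macrophage panels, NOD_5 in T cells, NOD_3 in B cells and NZO_5 in interferon-stimulated genes; the fibroblast sums do not overlap between the strains.

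Of 25 sarcomere genes 4 rose and 2 fell, a share of 24.0% against 25.1% over all genes. Acta1, on the list of cardiac stress genes, is the skeletal actin that the heart expresses before birth and under load; it had 536, 1645 and 3108 CPM in NZO hearts, against 346, 559 and 873 CPM in NOD hearts (log2 fold change 1.66 ± 0.25 SE, adjusted p = 2.11e-07), and the overlap came from NZO_8 at 536 CPM. Titin, Ttn, averaged 12779.9 ± 2524 CPM in NZO and 9076 ± 1314 CPM in NOD and the Z-disc protein Tcap averaged 510.3 ± 41.3 CPM in NZO and 318 ± 45.2 CPM in NOD; both rose, as did the actin-binding Xirp2 with 1894 ± 476 CPM in NZO and 1256 ± 142 CPM in NOD. The call of Tcap (adjusted p = 0.0229) was lost without NZO_8, NOD_3 and NOD_5 together (adjusted p = 0.0887). Tnnt2, cardiac troponin T, had 2736, 3014 and 3234 CPM in NZO hearts, against 3784, 4239.9 and 5126 CPM in NOD hearts (log2 fold change -0.53 ± 0.065 SE, adjusted p = 1.11e-09). Myh7, the slow myosin, averaged 249.6 ± 131 CPM in NZO and 500.3 ± 139 CPM in NOD; its call (adjusted p = 0.0194) was lost without NOD_4 (adjusted p = 0.0527), and its sum with the similar Myh6 did not pass (adjusted p = 0.157). The small heat shock protein Hspb6, which binds actin and counts among the heat shock genes, averaged 723 ± 122 CPM in NZO and 485 ± 48.3 CPM in NOD and rose, and Herpud1, of the unfolded protein response, averaged 134 ± 19.2 CPM in NZO and 190.1 ± 20.4 CPM in NOD and fell.

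Of 21 calcium handling genes 3 rose and 3 fell, a share of 28.6% against 25.1% over all genes. Casq1, the calsequestrin of skeletal muscle, had 15, 20.6 and 30.8 CPM in NZO hearts, against 7.13, 9.44 and 11.1 CPM in NOD hearts (log2 fold change 1.26 ± 0.16 SE, adjusted p = 1.92e-09), and Itpr2, an IP3 receptor, had 27.1, 31.2 and 33.1 CPM in NZO hearts, against 52.3, 62.5 and 75.4 CPM in NOD hearts (log2 fold change -1.03 ± 0.078 SE, adjusted p = 1.61e-17). Of 31 ion channels and connexins 5 rose and 4 fell, a share of 29.0%. The potassium channel Kcnj14 averaged 9.52 ± 3.02 CPM in NZO and 2.2 ± 0.705 CPM in NOD and rose without overlap. Kcnj2, which carries the inward-rectifier current that sets the resting potential, had 28.8, 38.5 and 52.2 CPM in NZO hearts, against 51.3, 69.7 and 84.1 CPM in NOD hearts (log2 fold change -0.86 ± 0.17 SE, adjusted p = 4.64e-05). Cacna1c, the L-type calcium channel, had 114, 122 and 129 CPM in NZO hearts, against 146, 155 and 175 CPM in NOD hearts (log2 fold change -0.37 ± 0.068 SE, adjusted p = 1.50e-05), and Kcnip2, a subunit of the transient outward current, averaged 84.3 ± 11.6 CPM in NZO and 119.8 ± 12.6 CPM in NOD; all 3 fell. Hcn4, the pacemaker channel, averaged 10.2 ± 2.54 CPM in NZO and 5.61 ± 1.38 CPM in NOD and rose.

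Among 27 genes of natriuretic peptides, the renin-angiotensin system, endothelin and adrenergic signalling 4 rose and 8 fell. Ednra, the endothelin receptor of muscle cells, had 36, 39.7 and 59 CPM in NZO hearts, against 86.2, 94.7 and 105 CPM in NOD hearts (log2 fold change -1.17 ± 0.16 SE, adjusted p = 3.92e-08), and its ligand Edn1 averaged 3.23 ± 0.863 CPM in NZO and 4.69 ± 0.899 CPM in NOD. Agt, the precursor of angiotensin, averaged 2.55 ± 0.993 CPM in NZO and 6.04 ± 1.56 CPM in NOD; all 3 fell. Npr3, the clearance receptor for natriuretic peptides, averaged 60.5 ± 6.66 CPM in NZO and 44.9 ± 3.64 CPM in NOD and rose.

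Of 18 circadian clock genes 6 rose and none fell. Per3 had 13.4, 19 and 27.1 CPM in NZO hearts, against 4.4, 8.28 and 10.4 CPM in NOD hearts (log2 fold change 1.33 ± 0.39 SE, adjusted p = 0.00754), and Bhlhe41 had 15.3, 25.8 and 31.1 CPM in NZO hearts, against 8.28, 10.2 and 13.1 CPM in NOD hearts (log2 fold change 1.24 ± 0.20 SE, adjusted p = 1.76e-06). The PAR-bZIP output factors were higher too: Tef averaged 98.4 ± 11.1 CPM in NZO and 57.8 ± 11 CPM in NOD, Hlf averaged 14.3 ± 2.16 CPM in NZO and 7.49 ± 1.1 CPM in NOD and Dbp averaged 9.91 ± 2.91 CPM in NZO and 2.42 ± 1.29 CPM in NOD. The call of Dbp (adjusted p = 0.0308) was lost without NOD_2, NOD_3 or NOD_4 (adjusted p from 0.055 to 0.0575). With the libraries numbered 1 to 4 alone 3 of 18 passed, and with 5 to 8 alone 1. Further lists near or below the background were heat shock genes (2 rose and 2 fell of 28), adipocyte markers (3 fell of 18) and glucocorticoid-induced genes (1 fell of 16). So were cell cycle genes (1 fell of 20), MHC class II (1 fell of 10), red cell genes (1 rose of 10) and atrial markers (1 rose and 1 fell of 12). These counts pool the library numbers. Between the number groups, 2 glucocorticoid-induced genes, 3 adipocyte markers and 3 heat shock genes (7 without NZO_8) had a positive difference. Over all tested genes 0.913% were positive. The summed glucocorticoid-induced genes had 1203 to 1812 CPM in NZO 1 to 4 and 3112.5 to 4969 CPM in NZO 5 to 8. In NOD they had 1873 to 3380 CPM in numbers 1 to 4 and 1458 to 1939 CPM in numbers 5 to 8. Among lists described above, endothelial markers (9.09% called), nuclear-encoded respiratory subunits (9.38%), the insulin list (16.7%) and sarcomere genes (24.0%) also lay below 25.1%. Macrophage markers (26.1%), calcium handling (28.6%) and ion channels (29.0%) lay little above it. No gene of 18 immediate early genes passed. Schwann and neuronal markers (3 rose and 3 fell of 13), cardiac stress genes (3 rose and 4 fell of 19) and skeletal muscle markers (1 rose and 1 fell of 6) went both ways.

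Differences were spread over the genome of GRCm38. The share of genes called ranged from 19.3% on chromosome 16 to 28.8% on chromosome 4 with Y and the mitochondrial genome set aside. Over 208 windows of 10 Mb with at least 30 tested genes the median share was 23.6% (quartiles 18.9% and 29.5%). The highest shares were 56.8% (21 of 37 genes) in the first 10 Mb of chromosome 5, 51.1% (23 of 45) at 130 to 140 Mb of chromosome 6 and 50% (21 of 42) at 110 to 120 Mb of chromosome 13. The lowest were 6.38% (3 of 47) at 150 to 160 Mb of chromosome 3, 6.45% in the window at 10 to 20 Mb of chromosome 1 and 8.57% in the first 10 Mb of chromosome 12. Singled out after their values were seen, all 13 genes called in the first 10 Mb of chromosome 14 were higher in NZO, 12 of them by at least 2-fold. At 170 to 180 Mb of chromosome 2, 25 of 31 were lower in NZO. Unprocessed pseudogenes, which are often copies of a neighbouring gene, were called in 26 of 47 cases (55.3%), and protein-coding genes in 25.5%. Where strains differ in gene copies or sequence, reads may be assigned differently, which was not tested.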

How the data were processed

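Heart RNA of 63 libraries was measured by polyA-selected RNA-seq, per the labels' protocols. The authors deposited estimated counts per gene, of which 18.4% are not whole, and variance-stabilised log2 values; GRCm38 and DESeq2 are named in the submitters' processing notes. The aligner, the counter and the use of strand are not named in the labels, so reads of overlapping antisense genes may be mixed. Gene positions were deposited by the authors in megabases.

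The deposited counts were rounded and fitted with edgeR 4.0.16 in R 4.3.3, with all 63 libraries in one fit, TMM scaling, a coefficient per strain, a robust quasi-likelihood test and Benjamini-Hochberg adjusted p (threshold 0.05); 16425 of 19220 genes passed filterByExpr with a minimum count of 10. The standard error is the size of the log2 fold change divided by the square root of F. Depth was 21.8 to 42.9 M counts per library. In simulated data of this comparison, only genes whose mean log2 CPM reached 1 were given a change. Of these the test found 78% of 100 changed by 0.5 log2 units and 100% of 100 changed by 1. For the 16225 genes left as they were, the test made 11 false calls. Below that level no change was simulated, so the recovery of weakly expressed genes is not known. Alternatives used DESeq2 1.42.0 and limma 3.58.1. Near-identical copies (at least 95% identity over 50% of the length) were found with BLASTN 2.17.0, and figures were drawn with matplotlib 3.10.9. Replicate numbers of the titles do not pair the samples: same-number correlations of deviations ran from -0.00834 to 0.223, with 4 of 8 over 0.1.

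The genes named were the 12 largest differences per direction among called genes with mean log2 CPM of at least 3 and no overlap, the 4 largest CPM differences per direction, up to 3 per direction in each gene list with mean log2 CPM of at least 1, Nnt and Glo1, and the 3 windows at each end; symbols of predicted genes, pseudogenes and clones, Xist and Y-linked genes were set aside. A few genes chosen this way are left out and not reported here. Of 862 genes in 41 lists 820 were tested. Genes outside this rule (those of the library numbers 1 to 4 and 5 to 8, the near-absent genes, and further list members such as Pdgfra, Col1a1, Lck, S100a8, Ifit1, Isg15, Upk3b, Srebf1, Hlf and Mcpt4) were chosen after their values were seen. The comparison and the lists were chosen with earlier results of these data known.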

Additional observations from a re-analysis of the deposited data

Results flagged for a closer look

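Within a strain, 38 of 312 groups of 8 libraries (156 genes in 2 strains) held 1 library far from the rest by Dixon's test with a critical value of 0.526. Chance would do this for about 1 in 20 groups if groups were independent and picked blindly. The genes here were those named in the text, some after their values were seen, and they share libraries. The count therefore cannot be set against that rate. NZO_8 gave 29 of the 38 groups. It lay above the other NZO libraries with 139 CPM for C1s1, 1555 CPM for C3, 74.4 CPM for Csf1r, 59 CPM for Ednra, 186 CPM for Fbln1, 178 CPM for Herpud1, 175 CPM for Igfbp4, 11.6 CPM for Mmp3, 64 CPM for S100a8 and 87.4 CPM for S100a9. It lay below them with 15.2 CPM for Acsl6, 536 CPM for Acta1, 61.5 CPM for Bcat2, 15.3 CPM for Bhlhe41, 162 CPM for Echs1, 1.94 CPM for Ephb1, 201 CPM for Fh1, 13.8 CPM for Hamp2, 17 CPM for Hrasls, 457 CPM for Hspb6, 16.3 CPM for Iqgap2, 37.1 CPM for Lrrc15, 7.94 CPM for Myom3, 34.1 CPM for Ndrg4, 21.6 CPM for Pccb, 410.0 CPM for Sod2, 154 CPM for Suclg2, 7749 CPM for Ttn and 76992 CPM for mt-Co1. NZO_8 also carried the neutrophil and macrophage markers described above, with 124 CPM of the acute phase gene Serpina3n (named after its values were seen), against 2.54 to 12.6 CPM in the other NZO libraries. NZO_5 stood apart with 21.8 CPM for Ifit2, 0.793 CPM for Lck and 28.2 CPM for Psmb10. NZO_6 stood apart with 784 CPM for Neat1. NOD_3 stood apart with 1.9 CPM for Hrasls. NOD_5 stood apart with 24.7 CPM for Cd4 and 7.95 CPM for Iqgap2. NOD_8 stood apart with 20.6 CPM for H19 and 1.2 CPM for S100a9. 

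The strain difference in libraries numbered 5 to 8 minus that in libraries numbered 1 to 4, on the log2 scale and by edgeR's interaction term, passed the test in 14 of the genes named. It was positive for Angptl4 (3.14), Pdk4 (2.75), Acot1 (2.52), Ucp3 (2.16), Acot2 (1.54), Plin2 (0.68), Cpt1a (0.61), Decr1 (0.59) and Hadha (0.38). It was negative for Slc2a4 (-0.62), Eno3 (-0.64), Ppm1k (-0.64), Ivd (-0.65) and Bckdhb (-0.79). These genes were named because they passed, so their number is no result.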

How the results depend on the processing

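The count of 4122 genes kept within 1.5 times under DESeq2 size factors, no filter, DESeq2's own test, limma, the fit of only NZO and NOD libraries and the removal of chromosomes X, Y and MT. With only the libraries numbered 1 to 4 it was 2376 (1139 higher and 1237 lower in NZO), and with only 5 to 8 it was 2645 (1264 higher, 1381 lower); both have fewer samples and were chosen after seeing the data. The 1053 genes at least 2-fold apart became 263 (119 higher, 144 lower) among genes whose mean log2 CPM reached 1, where fewer genes are tested, and 136 (57 higher, 79 lower) by limma on the deposited variance-stabilised values; the cause was not tested. Leaving out 1 library gave 3817 to 4011 genes (1888 to 1973 higher, 1926 to 2048 lower), 1018 to 1059 at least 2-fold apart (420 to 466 higher, 552 to 625 lower), and a mitochondrial share difference of 3.20 to 3.78 percentage points. With the mitochondrial protein genes alone it was 3.58 points. Without NZO_8, NOD_3 and NOD_5 together, also chosen after seeing the data, 3540 genes passed.

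The replicate block, with the replicate number as a factor, gave 4051 genes (2020 higher, 2031 lower) and 1015 at least 2-fold apart. The numbers do not pair the samples: 3 of 8 NZO libraries correlated best with their own number in NOD.

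Of the single genes, 5 turned in sign. Summed with copies, Atp5g2 came to 5.55e-04, Mx2 to 1.59 and Pgk1-rs7 to -0.0211; these values are those of the pair and not of the gene. Bckdhb came to 0.0331 with the libraries numbered 1 to 4 and Lck to 0.53 without NZO_8, NOD_3 and NOD_5; the cause was not tested. Reads with no gene, splice forms and sequence differences between strains are not in the counts and were not analysed here.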
